A study of Mus musculus with 15 samples.

Results

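The genes described here are 47 genes of DNA replication, taken from the 54532 genes of a count table by their symbols. They cover the licensing of origins (11 genes), the activation of the helicase (6), the sliding clamp and its loaders (7), the polymerases and primase (8), single-strand binding, joining and the fork (6), nucleotide supply (5), chromatin assembly and maintenance of DNA methylation (3), and the transcription factor E2f1. Every one of the 47 symbols was found once, and every one passed the filter on low counts in each comparison. RNA was sequenced from primary mesenchymal stem cells of C57BL/6 mouse bone marrow (BM-MSCs), bought from a supplier and used between passages 3 and 5. All of them had received 5 Gy, and all were then kept for 48 h. The plain gel, named Gel, was alginate grafted with the RGD peptide. Gel/IL-12 also held interleukin-12, Gel/Laponite held the nanoclay Laponite, and Gel/Laponite@IL-12 held IL-12 adsorbed on that clay. IR-Con was irradiated and had no gel. Each of the 5 groups had 3 libraries, and no unirradiated group was analysed here.

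A cell copies its DNA once in each cycle. In G1, the origin recognition complex with CDC6 and CDT1 loads the ring of MCM2-7 onto origins, and geminin later blocks CDT1 so that no origin is licensed again. In S phase, CDC45 and GINS turn the ring into a working helicase, and polymerases held by the PCNA clamp copy both strands while ribonucleotide reductase and thymidylate synthase supply the building blocks. E2F factors drive transcription of many of these genes before S phase, and ionizing radiation is known to hold cells back from that point.

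The promoters of these genes were compared first, as their letters bear on this background. Windows of 250 bases before to 50 bases after the start site were in RefSeq (GRCm38.p6) for 37 of the 47 genes, with 43 windows in all. An E2F match was any of TTTGGCGC, TTTCGCGC, TTTCCCGC and TTTGCCGC on either strand, and the 4 words can overlap each other. It was present in 14 of the 43 windows (32.6%), against 744 of the 32851 windows of all genes (2.26%). CCAAT, which NF-Y binds, was in 58.1% of the windows of replication genes and in 37.4% of all windows. TTTGAA, a word of the CHR element of G2 and mitosis genes, was in 11.6% and 17.9%. The median GC content was 61.3% in the windows of replication genes and 52.7% in all windows, and its part in these shares was not tested. The 14 genes with an E2F match were Cdc6, Cdt1, Gins3, Lig1, Mcm3, Mcm5, Mcm6, Mcm7, Orc1, Pola1, Pold1, Pole2, Rfc3 and Uhrf1. A match is a run of letters and not a measured binding site. The start sites are those of RefSeq, and the GENCODE annotation can begin a gene elsewhere. For some genes, Cdc6 and E2f1 among them, the window lies wholly inside the gene as GENCODE places it. There Cdc6 begins at chr11:98907801, and E2f1 begins at chr2:154569892 on the minus strand. Bases upstream of those 2 starts were not searched. The windows below are those of 3 helicase subunits with more than 1 match, of the loader Cdc6 with 1 match, and of Rpa1, the only gene of the set that was lower in the gels, with none. They were chosen after the values were seen. Each runs 5′ to 3′ on the strand of the gene, with the E2F matches in capitals.
Mcm3 (chr1:20820263-20820562, minus strand): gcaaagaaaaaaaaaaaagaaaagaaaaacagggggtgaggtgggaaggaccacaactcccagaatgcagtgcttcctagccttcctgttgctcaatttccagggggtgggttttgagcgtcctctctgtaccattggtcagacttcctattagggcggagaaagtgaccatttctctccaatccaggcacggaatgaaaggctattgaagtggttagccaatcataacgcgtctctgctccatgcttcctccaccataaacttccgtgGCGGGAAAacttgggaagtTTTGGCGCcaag
Mcm5 (chr8:75109259-75109558, plus strand): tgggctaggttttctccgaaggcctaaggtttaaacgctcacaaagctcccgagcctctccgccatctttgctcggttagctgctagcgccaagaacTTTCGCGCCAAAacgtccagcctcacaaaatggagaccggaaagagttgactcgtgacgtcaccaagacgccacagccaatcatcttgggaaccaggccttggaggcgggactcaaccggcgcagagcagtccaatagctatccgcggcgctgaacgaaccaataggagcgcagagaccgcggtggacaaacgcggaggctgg
Mcm6 (chr1:128359656-128359955, minus strand): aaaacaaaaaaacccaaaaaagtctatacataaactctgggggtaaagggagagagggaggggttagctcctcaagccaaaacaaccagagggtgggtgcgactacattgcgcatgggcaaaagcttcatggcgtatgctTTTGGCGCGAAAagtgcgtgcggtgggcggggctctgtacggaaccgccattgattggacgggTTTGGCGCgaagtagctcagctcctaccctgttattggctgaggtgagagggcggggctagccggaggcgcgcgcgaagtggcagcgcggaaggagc
Cdc6 (chr11:98907901-98908200, plus strand): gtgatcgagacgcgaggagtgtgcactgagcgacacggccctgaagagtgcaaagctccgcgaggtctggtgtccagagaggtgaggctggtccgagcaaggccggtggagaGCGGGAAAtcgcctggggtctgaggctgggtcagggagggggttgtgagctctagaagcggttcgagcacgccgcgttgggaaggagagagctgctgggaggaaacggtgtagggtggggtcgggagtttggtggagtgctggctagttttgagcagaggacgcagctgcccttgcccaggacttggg
Rpa1 (chr11:75348334-75348633, minus strand): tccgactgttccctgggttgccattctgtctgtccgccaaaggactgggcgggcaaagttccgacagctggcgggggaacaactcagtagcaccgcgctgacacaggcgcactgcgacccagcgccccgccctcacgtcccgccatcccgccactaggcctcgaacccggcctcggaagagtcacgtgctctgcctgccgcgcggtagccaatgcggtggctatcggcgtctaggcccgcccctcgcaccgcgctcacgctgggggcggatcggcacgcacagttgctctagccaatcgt
Positions were counted from the RefSeq start site, with minus for bases before it. The overlapping matches of Mcm5 began at -153 and -149, and the matches of Mcm6 at -110, -106 and -47. Those of Mcm3 began at 20 and 39, and that of Cdc6 at -138.

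The libraries held 14506459 to 17818982 counts. The 47 genes took 0.241% to 0.251% of the counts in the 12 gel libraries and 0.162% to 0.169% in the 3 IR-Con libraries, so that every gel library gave them a larger share. The IR-Con libraries differed more among themselves than the gel libraries did, with a biological coefficient of variation of 17.1% against 3.52% to 4.07% within the gels. IR-Con replicate 3 stood apart, with 1.91% of counts from mitochondrial genes against 2.49% and 2.56% in the other IR-Con libraries. All 3 were below the gel libraries, which had 2.79% to 3.06%, and the part of this in the differences was not tested. Without IR-Con replicate 3, 37 replication genes rose in Gel and 40 did so in Gel/IL-12, while Gel/Laponite had 38 and Gel/Laponite@IL-12 had 36, and the counts with it are given below. The nuclear RNA Malat1 took 0.0568% to 0.182% of counts in the gels and 0.356% to 0.542% in IR-Con, and its part in the differences below was not tested. The label as stem cells of the mesenchyme was met by all 10 of its markers, whose sum was 3259 to 3381 CPM (counts scaled to a common library total) in the gels and 3219 to 3681 CPM in IR-Con. Single markers moved both ways, with Thy1, Vcam1 and Cd44 higher and Itgav and Pdgfrb lower in every gel, and log2 gel effects from -0.41 to 1.91 over the 10. Of 7 macrophage markers all had a count, with a sum of 13.0 to 17.0 CPM in the gels and 13.1 to 19.0 CPM in IR-Con, while Adgre1, Itgam and Fcgr1 stayed under 10 counts in every library. Of these only Lyz2 passed in a gel, lower in Gel (-1.60), in Gel/IL-12 (-1.57) and with Laponite@IL-12 (-1.46), and its part in the values below was not tested. Other blood cell markers summed to at most 0.762 CPM in the gels and 0.0607 CPM in IR-Con, with Cd3e at 0. The 5 endothelial markers summed to 5.64 to 10.1 CPM in the gels and 6.68 to 7.29 CPM in IR-Con, with Emcn at 0, and 1 of them, Cdh5, at under 1 CPM on average in every group, was higher over 15 libraries (1.36 ± 0.45, edgeR adjusted p = 0.014).

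The first question was whether the replication genes differ between irradiated cells kept with a gel and those kept without. Most of them were higher in all 4 gels. Of the 47 genes, 46 had their lowest group mean in IR-Con, and Rpa1, the large subunit of the single-strand binding protein RPA, was the exception. In 6-library fits of one gel and IR-Con, 35 genes rose in Gel and 39 did so in Gel/IL-12, while Gel/Laponite had 36 and Gel/Laponite@IL-12 had 34, and Rpa1 fell in each (edgeR's quasi-likelihood test, adjusted p under 0.05 over all genes). Of all genes tested, 15.9%, 17.2%, 16.2% and 16.1% were higher in those same fits, and 14.5%, 15.7%, 15.1% and 14.3% were lower. The median log2 fold change of the 47 genes was 0.69 in Gel and also 0.69 in Gel/IL-12, it was 0.61 with Laponite and 0.66 with Laponite@IL-12, where the median of all genes tested was -0.0060, -0.0037, -0.0073 and -0.0068 in the same order. In all 4 fits at once, 33 of the 47 genes were higher, against 12.8% of all genes, and 1 was lower, against 11%. These 4 comparisons use the same 3 IR-Con libraries. The labels do not say whether the 3 libraries of a group came from separate cultures, so the p-values measure the spread between libraries, which may be technical. In RNA from whole cultures, fewer cells in S phase and less of these RNAs in each cell cannot be told apart.

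The average of the 4 gels over IR-Con, fitted over all 15 libraries and called the gel effect below, was higher for 44 of the 47 genes and lower for Rpa1, against 27.4% and 27.6% of all genes. That fit gives IR-Con and the gels a shared spread. With limma's voom, which weighted the IR-Con libraries apart from the gel libraries, 36 of the 47 genes were higher and 1 was lower. Of all genes, 16.2% and 16.9% were. The adjusted p-values printed for single genes are those of the 4 fits of one gel and IR-Con. They are given as a range from the smallest to the largest. Each of these fits also gives its gel and IR-Con a shared spread, so that its p-values and intervals carry the same limit. The SE printed beside a gel effect comes from the fit over all 15 libraries. That SE is too small in this respect, since voom's SE was 1.27 to 2.92 times as large over the 47 genes (median 1.87 times). It was 0.26 for Gmnn, 0.56 for Fen1 and 0.10 for Mcm5, where the values beside the gel effects below are 0.11, 0.19 and 0.05. For 35 genes, all 12 gel libraries lay above all 3 IR-Con libraries, and for Rpa1 all 12 lay below, against 18% and 15.6% of all genes.

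**Figure D1:**
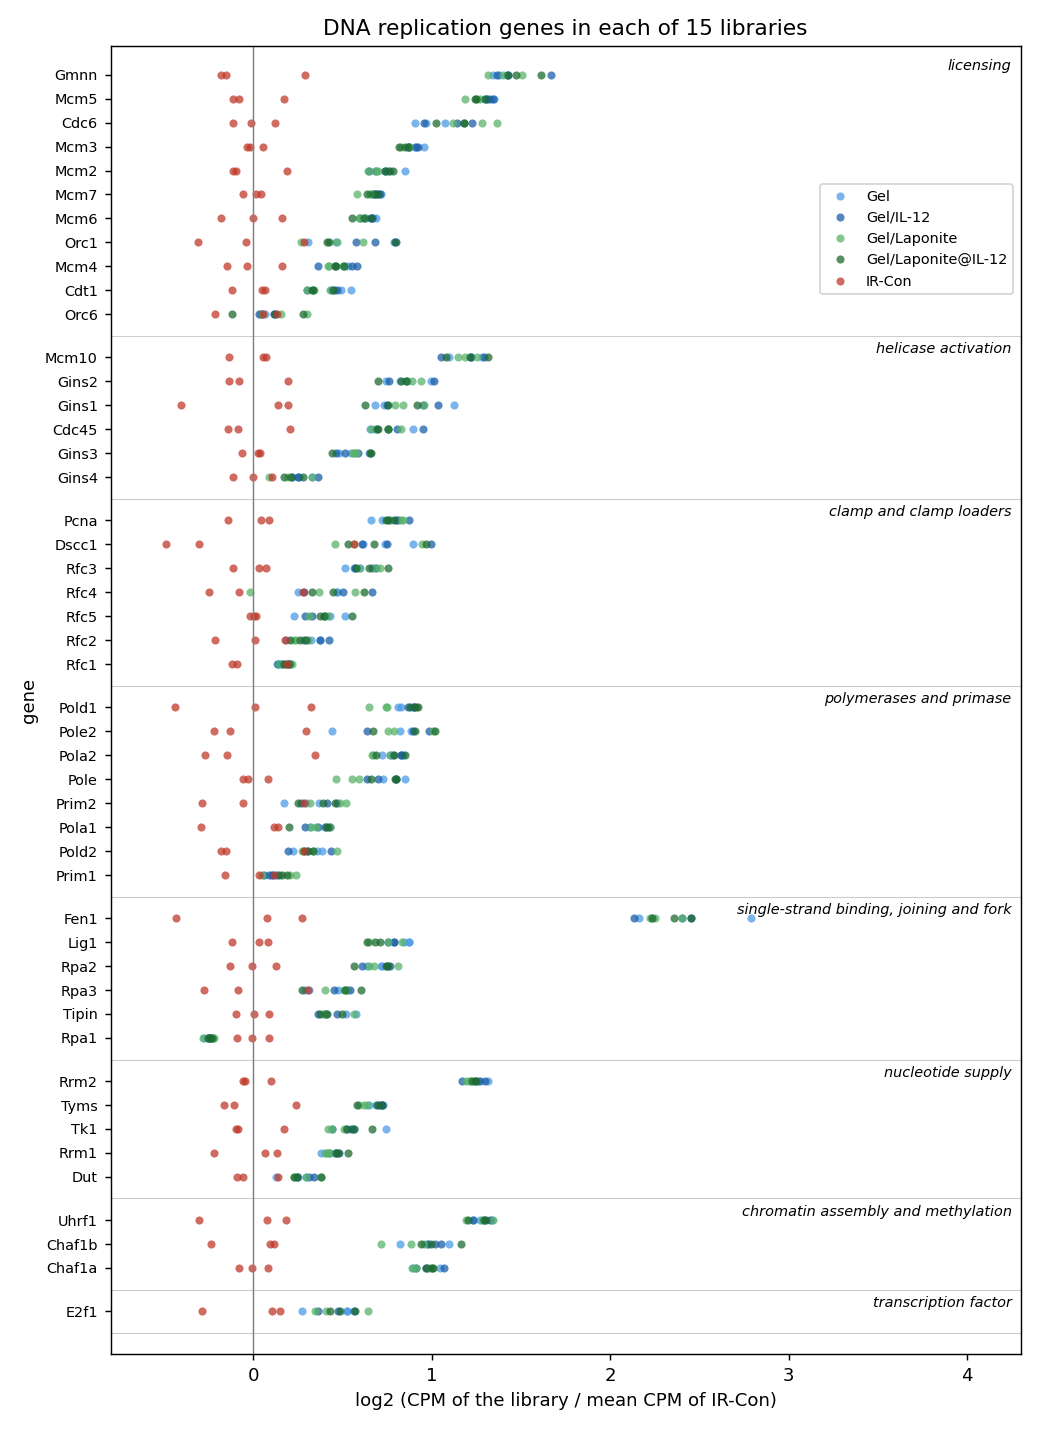
Each row is 1 of the 47 genes, grouped by step, and each point is 1 of the 15 libraries at the log2 of its CPM over the mean CPM of IR-Con (x axis, so that 0 is the mean of IR-Con). For 35 genes all 12 gel points lie to the right of the 3 IR-Con points, Rpa1 lies to the left, and the points of 11 genes overlap.

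The licensing genes rose with the exception of Orc6, which missed the test in every gel, and of Orc1, which passed in 1 gel. Their gel effects were between 0.10 and 1.44, with a median of 0.67. Gmnn, which encodes the CDT1 inhibitor geminin, had 13.9 to 17.8 CPM in the 12 gel libraries (median 15) and 5.04, 6.85 and 4.94 CPM in the IR-Con libraries. Every gel library was above every IR-Con library, and the mean of IR-Con was 5.61 ± 1.07 CPM (SD, n = 3). Its gel effect, 1.44 ± 0.11 on the log2 scale (SE), was the highest of the licensing genes, and it passed in all 4 gels (edgeR adjusted p = 9.01e-05 to 0.000162). Cdc6, the loader of the helicase, had 14.5 to 20 CPM in the gel libraries (median 17.0) and 8.44, 7.68 and 7.16 CPM in IR-Con (gel effect 1.12 ± 0.09, edgeR adjusted p = 8.84e-05 to 0.00041). Cdt1, its partner and the target of geminin, moved less, with 59.8 to 70.9 CPM in the gels (median 65.4) and 44.6, 50.1 and 50.7 CPM in IR-Con (gel effect 0.41 ± 0.06, edgeR adjusted p = 0.0016 to 0.0111).

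The origin recognition complex was represented by Orc1 and Orc6, and its 2 genes had overlapping groups. Orc1, the subunit that leaves the complex after G1 in mammals, had 8.41 to 12.2 CPM in the gel libraries (median 10) and 8.50, 6.78 and 5.63 CPM in IR-Con, with 11 of the 12 gel libraries above all of IR-Con. It passed in Gel/IL-12 (0.69, edgeR adjusted p = 0.0133) and missed in Gel (0.53, adjusted p = 0.0644), with Laponite (0.45, 0.094) and with Laponite@IL-12 (0.55, 0.0525). Orc6 had 30.8 to 41.2 CPM in the gels (median 35.6) and 34.8, 36.7 and 28.9 CPM in IR-Con. Its groups overlapped, and its log2 fold change was 0.06 to 0.17 over the 4 gels. The 95% intervals of the 4 fits reached from -0.18 to 0.42, which leaves room for a rise of up to 1.34-fold.

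All 6 subunits of the MCM2-7 ring rose in all 4 gels, with gel effects between 0.48 and 1.29. Mcm5 had the highest, with 97.4 to 109 CPM in the gel libraries (median 106) and 40.5, 39.6 and 48.3 CPM in IR-Con, a gel effect of 1.29 ± 0.05 (edgeR adjusted p = 4.72e-06 to 8.48e-06). Mcm3 had 183 to 202 CPM in the gels (median 191) and 102, 108 and 103 CPM in IR-Con, a gel effect of 0.88 ± 0.04. Mcm2 had 123 to 142 CPM in the gels (median 131) and 73.5, 72.9 and 89.7 CPM in IR-Con, a gel effect of 0.73 ± 0.05. The other subunits followed with gel effects of 0.67 ± 0.04 for Mcm7, 0.63 ± 0.05 for Mcm6 and 0.48 ± 0.06 for Mcm4. The groups overlapped for none of the 6. The order among the subunits was not tested. Of the windows of Mcm7 that are 50 bases long, 76.7% occur in no other gene, since the pseudogene Gm5487 shares part of its sequence, and Gm5487 had 0 counts in every library.

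The subunits of the ring are present in equal numbers in the protein, and their RNA levels differed both per kb and in FPKM. Gene length is the authors' value, and the sources used here do not say whether it is the length of the RNA. Levels per kb compared between genes, here and below, carry that limit. Per kb of gene length, Mcm3 was the most abundant, with 52.3 ± 1.52 CPM per kb in Gel and 51.9 ± 0.93 in Gel/IL-12. It had 50.3 ± 0.87 with Laponite, 49.9 ± 0.93 with Laponite@IL-12 and 27.8 ± 0.92 in IR-Con (SD, n = 3). In the gels, Mcm4, Mcm5 and Mcm7 lay together between 23.3 and 27.7 CPM per kb in single libraries, and Mcm2 and Mcm6 between 17.7 and 20.4. In IR-Con the order differed, since Mcm5 had the lowest mean of the 6, 10.7 ± 1.2 CPM per kb. Mcm2 had 11.3 ± 1.37 and Mcm6 had 12.1 ± 1.42. The spreads of these 3 genes overlapped, and their order was not tested. The deposited FPKM also put Mcm3 first in the gels, with a mean of 50.2, and otherwise gave another order, with 33.9 for Mcm7, 30.3 for Mcm2, 25.1 for Mcm5, 22.6 for Mcm6 and 19.8 for Mcm4.

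**Figure D2:**
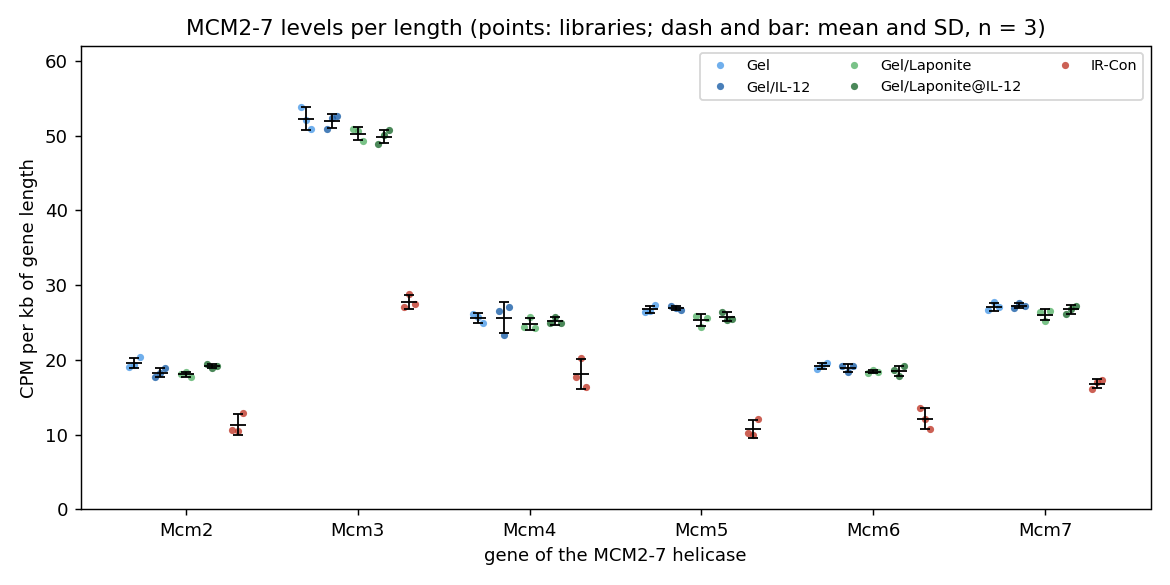
Levels of the 6 genes of the MCM2-7 helicase, in CPM per kb of gene length (y axis, from 0), in each library of the 5 groups, with IR-Con on the right of each gene. The dash and bar give the mean and SD of 3 libraries. On this scale Mcm3 is the highest of the 6 in every group. The log2 gel effect, which is not drawn here, was the highest for Mcm5 (1.29).

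Of the 6 genes that turn the loaded ring into a working helicase, 5 rose in all 4 gels, and Gins4 rose in 2. Mcm10, which helps to open the ring, had 25.4 to 30.5 CPM in the gels (median 28.4) and 12.7, 12.9 and 11.1 CPM in IR-Con (gel effect 1.2 ± 0.08, edgeR adjusted p = 3.13e-05 to 5.77e-05). Cdc45, the helicase cofactor, had a gel effect of 0.77 ± 0.09. The 4 subunits of the GINS complex had gel effects of 0.86 ± 0.08 (Gins2), 0.85 ± 0.14 (Gins1), 0.56 ± 0.09 (Gins3) and 0.25 ± 0.06 (Gins4). Gins4 was also the most abundant per length, with 28.4 to 34.3 CPM per kb in the gels and 24.7 to 28.7 in IR-Con, where no other GINS gene exceeded 6.95 in any library. Gins4 passed in Gel (0.28, edgeR adjusted p = 0.0408) and Gel/IL-12 (0.28, 0.0416) and missed with Laponite (0.21, adjusted p = 0.147) and with Laponite@IL-12 (0.22, 0.102). In FPKM the order was another, with log2 ratios of 0.91 for Gins1, 0.59 for Gins3, 0.35 for Gins4 and 0.30 for Gins2. Gins2 shares 67.3% of its exon bases with Gse1 on the other strand. The strand setting of the counting is not given in the sources used here, and Gse1 itself went the other way, with 27.0 to 32.1 CPM in the gels and 32.0 to 52.1 CPM in IR-Con (gel effect -0.38 ± 0.10, edgeR adjusted p = 0.00402 over 15 libraries).

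Among the clamp and its loaders, the clamp itself and 2 of the 6 loader genes rose in all 4 gels. Pcna, the sliding clamp that tethers the polymerases, had 148 to 171 CPM in the gels (median 160) and 96.5, 99.6 and 85 CPM in IR-Con, with no overlap (gel effect 0.78 ± 0.05, edgeR adjusted p = 5.64e-05 to 0.000126). Its windows of 50 bases were found in no other gene for 80.9%, and the pseudogene that shares most of the rest, Pcna-ps2, was counted at 0.864 to 1.76 CPM in the gels and 0.486 to 0.768 CPM in IR-Con. Of the 5 subunits of the loader RFC, Rfc3 (0.63 ± 0.06) and Rfc5 (0.39 ± 0.06) rose in all 4 gels. Rfc2 (0.29 ± 0.07) passed in Gel/IL-12 alone (edgeR adjusted p = 0.0313, against 0.0758 to 0.113 in the other gels). Rfc1, the large subunit, had 82.4 to 87.2 CPM in the gels (median 85) and 85.7, 70.6 and 69.3 CPM in IR-Con, so that 1 IR-Con library lay within the gels, and it passed in no gel (0.16 to 0.18, edgeR adjusted p = 0.162 to 0.215). Rfc4 had 6.52 to 10.5 CPM in the gels (median 9.07) and 6.25, 8.0 and 5.56 CPM in IR-Con and passed in no gel (0.32 to 0.49, edgeR adjusted p = 0.0647 to 0.264). Dscc1, a subunit of the alternative loader that also acts in sister chromatid cohesion, had 4.57 to 6.64 CPM in the gels (median 5.43) and 4.92, 2.69 and 2.36 CPM in IR-Con. With 34 counts in its lowest library it passed in no gel (0.66 to 0.79, edgeR adjusted p = 0.0537 to 0.111). Its FPKM, 1.95 to 3.58 in the gels and 0.442 to 1.07 in IR-Con, did not overlap, and their log2 ratio of 1.84 was the highest of the 47 genes on that scale.

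The 3 replicative polymerases rose through some subunits and less through others. Pold1, the catalytic subunit of polymerase delta, had 34.9 to 42.2 CPM in the gels (median 40.7) and 22.4, 16.4 and 27.9 CPM in IR-Con, which spread widely and still lay below every gel library (gel effect 0.84 ± 0.09, edgeR adjusted p = 0.00172 to 0.00729). Its partner Pold2 had 35.3 to 42.7 CPM in the gels (median 38.4) and 27.2, 27.8 and 37.5 CPM in IR-Con, where replicate 3 lay inside the gels, and it passed in no gel (0.31 to 0.36, edgeR adjusted p = 0.0598 to 0.0923). Pole, the catalytic subunit of polymerase epsilon on the leading strand, rose in all 4 gels (0.70 ± 0.06), as did its second subunit Pole2 (0.82 ± 0.15). In the primase and polymerase alpha complex, which lays the primers, only Pola2 rose in all 4 gels (0.77 ± 0.09), and Pola1, the catalytic subunit, passed in 3 and missed in Gel/Laponite@IL-12 (0.34, edgeR adjusted p = 0.064). Prim1, the small primase subunit, had 30.4 to 34.6 CPM in the gels (median 32.1) and 30, 31.7 and 26.2 CPM in IR-Con, and passed in no gel (0.08 to 0.17, edgeR adjusted p = 0.249 to 0.55), with 95% intervals that reached from -0.14 to 0.40. Prim2, the large primase subunit, had 13.4 to 17.0 CPM in the gels (median 15.4) and 11.4, 14.5 and 9.73 CPM in IR-Con and passed in no gel (0.28 to 0.44, edgeR adjusted p = 0.0556 to 0.207).

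The RPA complex, which coats single-stranded DNA, was split. Rpa1 had 164 to 171 CPM in the gels (median 169) and 198, 212 and 188 CPM in IR-Con, so that every gel library was below every IR-Con library. It fell in all 4 gels, by 0.24 to 0.25 on the log2 scale (edgeR adjusted p = 0.0258 to 0.032). This call ended in each gel without the filter on low counts (adjusted p = 0.108 to 0.135), without any 1 of that gel's libraries (0.111 to 0.173) and without IR-Con replicate 2 (0.0719 to 0.0911). Rpa2 rose, with 23.7 to 28.1 CPM in the gels (median 26.4) and 17.5, 15.9 and 14.6 CPM in IR-Con (gel effect 0.70 ± 0.07, edgeR adjusted p = 0.00104 to 0.00133). Rpa3, the smallest subunit, had 19.4 to 24.3 CPM in the gels (median 22.5) and 15.1, 19.8 and 13.2 CPM in IR-Con, and passed in 3 gels and not in Gel (0.36, edgeR adjusted p = 0.0982). Lig1, which joins Okazaki fragments, rose by 0.77 ± 0.06, and Tipin, a part of the complex that steadies the fork, by 0.45 ± 0.06, both in all 4 gels.

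Fen1, the nuclease that trims the flaps of Okazaki fragments, had the highest gel effect of the 47 genes in counts, and its size differed between counts and FPKM. The gene lies at chr19:10199132-10204169 on the minus strand of GRCm38. It had 5.30 to 8.37 CPM in the gels (median 5.97) and 1.27, 0.896 and 1.46 CPM in IR-Con (gel effect 2.35 ± 0.19, edgeR adjusted p = 7.59e-05 to 0.000139), with 14 counts in its lowest library. Of its exon bases, 84.2% lie in other annotated genes on the opposite strand, Gm10143 and Tmem258, and 23.3% of its windows of 50 bases are in no other gene. Tmem258 had 52.4 to 65.4 CPM in the gels and 29.0 to 54.4 CPM in IR-Con (0.61 ± 0.15), and the part of its reads in the counts of Fen1 was not tested. The table's FPKM gave Fen1 13.1 to 15.02 in the gels and 7.93 to 9.08 in IR-Con, a log2 ratio of 0.73 in place of 2.35. The direction held in both, and the size did not.

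Of the 5 genes of nucleotide supply, 4 rose in all 4 gels, and a subunit of ribonucleotide reductase rose most. Rrm2, its regulatory subunit that is made in S phase, had 54.9 to 60.7 CPM in the gels (median 57.8) and 23.6, 23.4 and 26.2 CPM in IR-Con (gel effect 1.24 ± 0.05, edgeR adjusted p = 4.72e-06 to 8.38e-06). Rrm1, the catalytic subunit, had 197 to 219 CPM in the gels (median 206) and 166, 159 and 130 CPM in IR-Con, a smaller change (0.44 ± 0.05). The difference between the 2 subunits was not tested. Tyms, which makes dTMP, rose by 0.67 ± 0.07 and the thymidine kinase Tk1 by 0.54 ± 0.07, both in all 4 gels. Dut, which removes dUTP, had 33.2 to 39.6 CPM in the gels (median 36.8) and 28.6, 29.2 and 33.5 CPM in IR-Con. It passed in Gel/IL-12 (0.30, edgeR adjusted p = 0.0344) and Gel/Laponite (0.30, 0.0412) and missed in Gel (0.23, adjusted p = 0.114) and Gel/Laponite@IL-12 (0.29, 0.0546).

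Chromatin assembly and methylation behind the fork had the highest median gel effect of the steps with more than 1 gene, 0.97. This rank rests on 3 genes and was not tested, and 9 other genes of this step, given below, had a median of 0.41. Uhrf1, which brings the maintenance methylase to new DNA, had 65.9 to 73.2 CPM in the gels (median 70.4) and 30.5, 23.4 and 32.8 CPM in IR-Con (gel effect 1.28 ± 0.07, edgeR adjusted p = 2.94e-05 to 3.95e-05). The histone chaperone subunits Chaf1a and Chaf1b had gel effects of 0.97 ± 0.06 and 0.97 ± 0.09. Chaf1a shares 52.5% of its exon bases with Ubxn6 on the other strand, whose own gel effect was 0.10 ± 0.08. E2f1, the transcription factor, had 25.8 to 33.3 CPM in the gels (median 29.8) and 22.9, 17.5 and 23.6 CPM in IR-Con, with no overlap (gel effect 0.47 ± 0.09, edgeR adjusted p = 0.0139 to 0.0294). The 14 genes with an E2F match in a RefSeq window had gel effects between 0.36 and 1.29 (median 0.72). The 23 with a window and no match had gel effects between -0.25 and 2.35 (median 0.54). Both sets hold genes whose window lies inside the gene as GENCODE places it, Cdc6 in the first and E2f1 in the second. The ranges overlap, and no test was made of them.

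The FPKM columns, made by the authors with values that do not follow from the counts and gene lengths, gave the same direction for all 47 genes, with 46 ratios above 1 and Rpa1 below. The median log2 ratio of the 47 genes was 0.79, and that of all genes tested, with a pseudocount of 0.1, was 0.11. The 2 measures differed by more than 0.5 on the log2 scale for 6 genes, namely Fen1 and Gins2 with a smaller FPKM ratio, and Dscc1, Chaf1b, Tipin and Orc1 with a larger one. The FPKM of all genes summed to 381111 to 396582 in the gel libraries and 316555 to 353222 in IR-Con. The part of this in the FPKM ratios and overlaps was not tested. In FPKM, 39 of the 47 genes had all 12 gel libraries above all 3 IR-Con libraries, against 21.1% of all genes, and none had all of them below. Of the 11 genes whose groups overlapped in counts, 6 did not overlap in FPKM (Orc1, Gins4, Dscc1, Prim1, Pold2 and Dut), while Rfc2, Pole2 and Rpa1 overlapped in FPKM and not in counts. For Rpa1, FPKM were 25.4 to 27.1 in the gels and 26.2 to 33.4 in IR-Con. For Orc1 they were 2.33 to 3.32 in the gels and 0.911 to 1.98 in IR-Con.

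**Figure D3:**
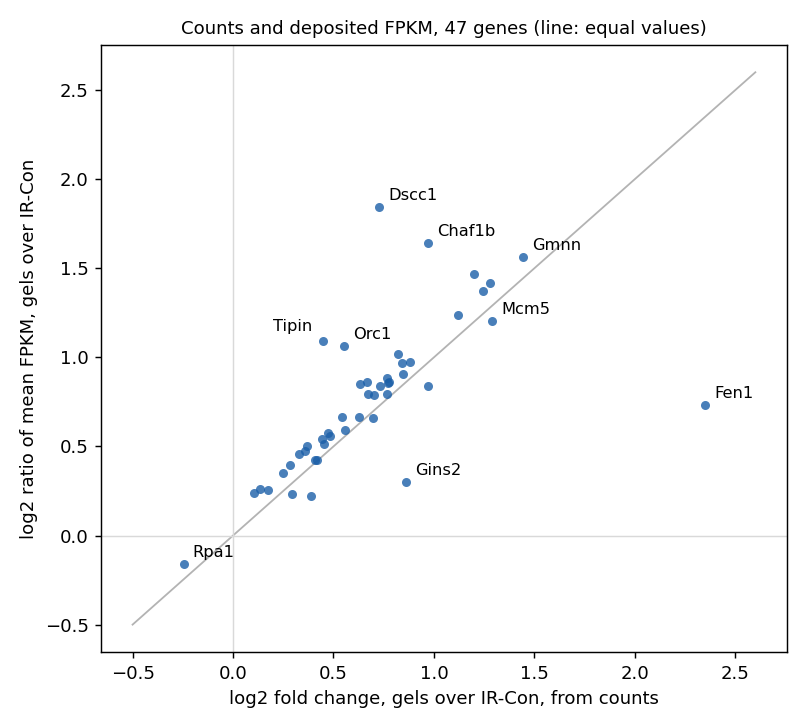
Each point is 1 of the 47 genes, with the gel effect from counts on the x axis and the log2 ratio of the mean FPKM of the 12 gel libraries over the 3 IR-Con libraries on the y axis. The line marks equal values. Fen1 (2.35 from counts, 0.73 from FPKM) lies farthest from it, and Rpa1 is the only gene below 0 on both axes.

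The second question was whether IL-12 or Laponite in the gel changes the replication genes. The 12 gel libraries were fitted alone for this, and the differences were small. No replication gene passed for the IL-12 effect or for the Laponite effect (edgeR, 12 gel libraries), where 0.342% and 5.52% of all genes passed in either direction, and both alternatives, limma's voom and DESeq2, gave 0 calls. At an unadjusted p under 0.05 there were 3 genes for IL-12 and 6 for Laponite. The log2 fold changes of the 47 genes ran between -0.08 and 0.13 for IL-12 and between -0.12 and 0.14 for Laponite. Over all 47 genes the 95% intervals of the IL-12 effect reached from -0.23 to 0.30, and those of the Laponite effect from -0.29 to 0.27, so that larger differences than these lie outside every interval. The widest belonged to genes with few counts, such as Dscc1 and Fen1.

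For the IL-12 effect, the smallest unadjusted p belonged to Pold1 (0.12, 95% interval 0.04 to 0.20, edgeR adjusted p = 0.375), Rrm1 (0.06, 0.01 to 0.10, adjusted p = 0.490) and Lig1 (-0.08, -0.16 to -0.00, adjusted p = 0.771). For the Laponite effect they belonged to Mcm5 (-0.08, 95% interval -0.13 to -0.03, edgeR adjusted p = 0.0605), Lig1 (-0.11, -0.19 to -0.04, adjusted p = 0.0693) and Mcm3 (-0.06, -0.11 to -0.02, adjusted p = 0.0759). None of these 6 passed.

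Between single gels, 4 differences passed, in 3 genes. Pole had 37.8, 36.9 and 34.6 CPM in Gel/Laponite and 43.7, 41.6 and 45.3 CPM in Gel. The groups did not overlap, and Pole was lower in Gel/Laponite (-0.26 ± 0.06, edgeR adjusted p = 0.00125). In Gel/Laponite@IL-12 it had 43.5, 43.7 and 39.6 CPM, above all 3 libraries of Gel/Laponite (0.21 ± 0.06, edgeR adjusted p = 0.0352). Mcm2 had 126, 128 and 123 CPM in Gel/Laponite and 132, 134 and 142 CPM in Gel and was lower in Gel/Laponite (-0.12 ± 0.03, edgeR adjusted p = 0.0219). Lig1 had 41.2, 39.1 and 40.4 CPM in the Gel/Laponite@IL-12 libraries and 46.1, 46.1 and 45.1 CPM in Gel and was lower in Gel/Laponite@IL-12 (-0.19 ± 0.06, edgeR adjusted p = 0.0311). Of all genes, 5.39% passed in either direction in Gel/Laponite over Gel, 3.09% in Gel/Laponite@IL-12 over Gel and 1.73% in Gel/Laponite@IL-12 over Gel/Laponite. Of the 47 replication genes 2, 1 and 1 passed, which are shares near these. No replication gene passed in Gel/IL-12 over Gel, in Gel/Laponite@IL-12 over Gel/IL-12 or in Gel/Laponite over Gel/IL-12 (edgeR), where 1.8%, 4.34% and 2.28% of all genes passed, and 2, 2 and 6 had an unadjusted p under 0.05. With limma's voom or DESeq2 these 3 had 0 calls as well.

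The fold sizes of these calls were small beside the gel effect. Pole rose by 0.53 in Gel/Laponite and by 0.79 in Gel, each over IR-Con, so that it stayed above IR-Con in both. The call of Pole in Gel/Laponite over Gel held without any 1 library, with adjusted p from 0.00108 to 0.0227. The call of Mcm2 ended without Gel replicate 3 (adjusted p = 0.239), Gel/Laponite replicate 1 (0.0512) or Gel/Laponite replicate 3 (0.0972), and without the filter on low counts (0.0601). The call of Lig1 ended without any 1 of the 3 Gel libraries (0.0634 to 0.125) or without Gel/Laponite@IL-12 replicate 2 (0.17) or 3 (0.0955), and with DESeq2 (0.0945). That of Pole in Gel/Laponite@IL-12 over Gel/Laponite ended without any 1 of the 3 Gel/Laponite libraries (0.0517 to 0.167) or Gel/Laponite@IL-12 replicate 1 (0.227) or 2 (0.141). All 4 calls ended when the 15 libraries shared 1 fit.

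The interaction asks whether the difference that Laponite makes is the same with and without IL-12. It passed for 3 replication genes, Mcm2 (0.18, 95% interval 0.08 to 0.28, edgeR adjusted p = 0.0153), Pole (0.29, 0.13 to 0.46, adjusted p = 0.0233) and Pcna (-0.16, -0.25 to -0.07, adjusted p = 0.0341), against 3.7% of all genes in either direction. Mcm2 and Pole were lower in Gel/Laponite than in Gel, as given above. With IL-12 in both gels, Mcm2 averaged 133 ± 2.05 CPM in Gel/Laponite@IL-12 and 127 ± 4.05 in Gel/IL-12, and Pole averaged 42.3 ± 2.32 CPM in Gel/Laponite@IL-12 and 41.2 ± 2.37 in Gel/IL-12 (SD, n = 3), and neither difference passed. Pcna went the other way, with 164 ± 4.56 CPM in Gel/Laponite and 154 ± 5.44 in Gel, against 159 ± 2.37 in Gel/Laponite@IL-12 and 166 ± 4.45 in Gel/IL-12 (SD, n = 3). Without Gel replicate 3, Gel/IL-12 replicate 1 or Gel/Laponite@IL-12 replicate 1 none of the 3 passed, and none passed when the 15 libraries shared 1 fit.

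**Figure D4:**
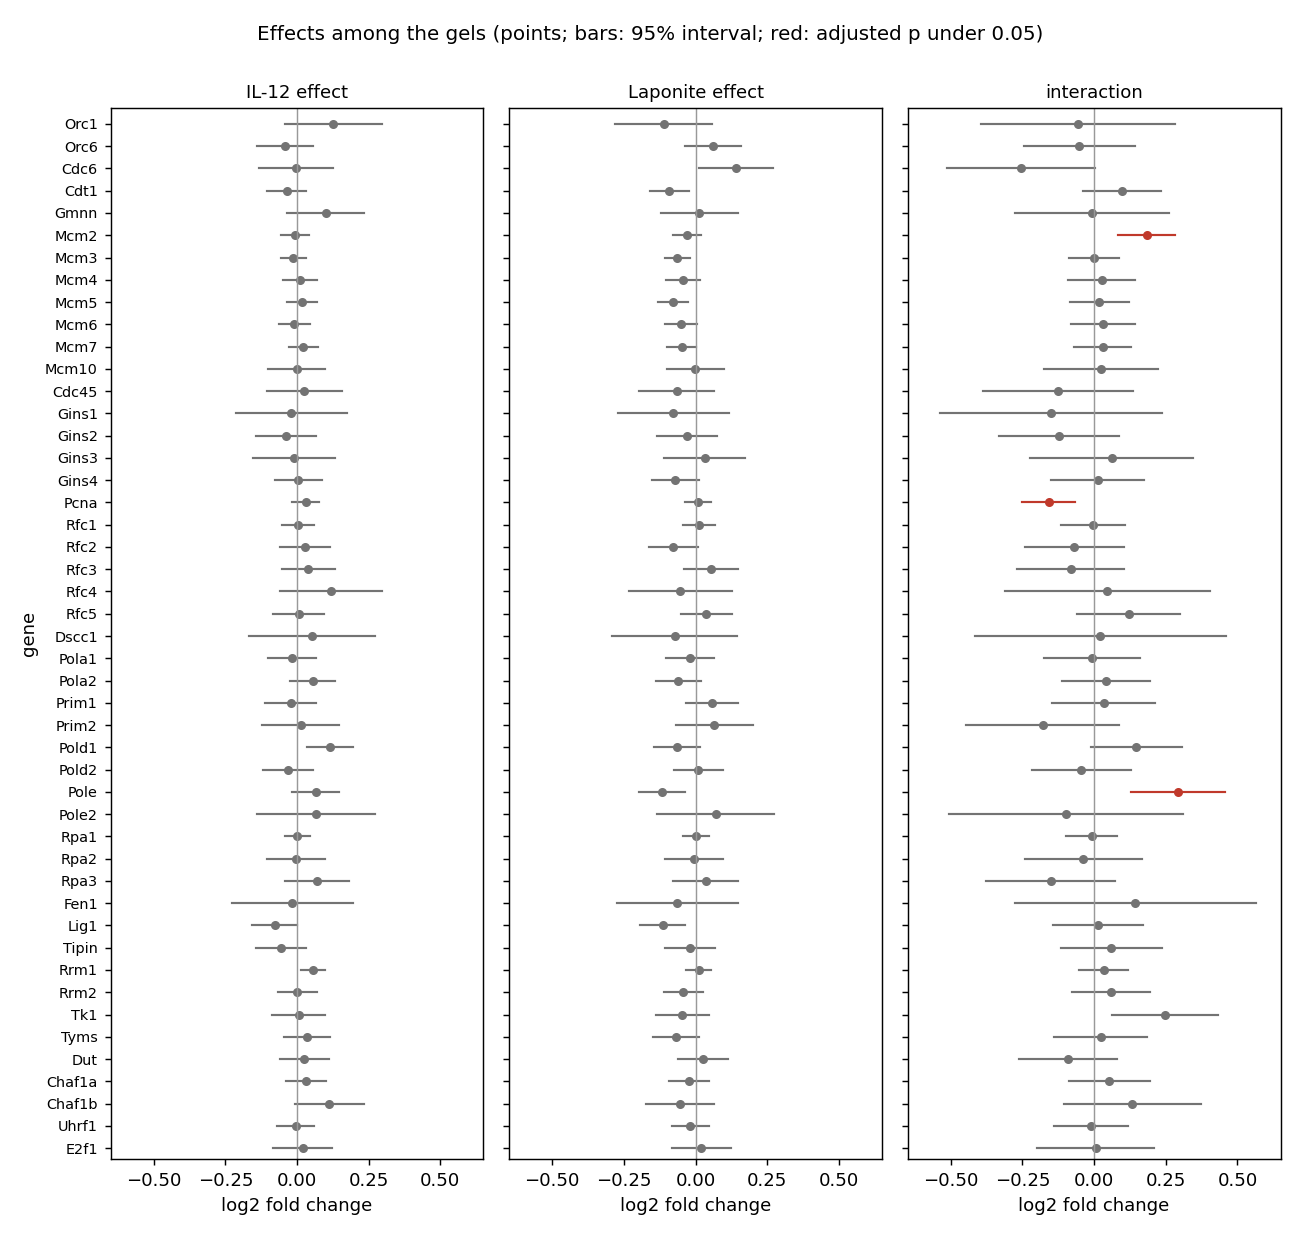
Points give the log2 fold change of the 47 genes for the IL-12 effect, the Laponite effect and their interaction in the 12 gel libraries (x axes), and bars the 95% interval. Red marks an adjusted p under 0.05, which is reached by Mcm2, Pole and Pcna in the interaction and by no gene in the other panels.

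The other genes of the pathway were read from lists that hold none of the 47 genes. These lists were chosen with earlier results of these data known. Of 14 other genes of licensing and origin firing, 7 rose in each of the 4 gels over IR-Con and none fell (median gel effect 0.39). For these lists too, the share of all genes that rose was 15.9% to 17.2%, depending on the gel. Recql4 (gel effect 1.01 ± 0.10) and Ticrr (0.99 ± 0.10), both needed to fire origins, moved most, and the kinase Cdc7 (0.73 ± 0.07) and its activator Dbf4 (0.82 ± 0.07) rose too. The remaining subunits of the origin recognition complex, Orc2, Orc3, Orc4 and Orc5, passed in no gel. Of 15 other fork, polymerase and clamp loader genes, 10 to 12 rose in a gel and none fell (median gel effect 0.45), led by Chtf18 (0.99 ± 0.10), of the same loader as Dscc1, and the checkpoint mediator Clspn (0.94 ± 0.09). Of 10 other genes of nucleotide supply, 5 or 6 rose in a gel (median 0.43), led by the deaminase Dctd (0.98 ± 0.06) and the kinase Dtymk (0.70 ± 0.06). Nme1 was lower in Gel/Laponite alone (-0.35, edgeR adjusted p = 0.0393), and Rrm2b, the reductase subunit that p53 induces, had log2 fold changes between -0.28 and -0.15 and passed in none of the gels (it passed in the fit over 15 libraries, edgeR adjusted p = 0.00987).

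Of 9 other genes of chromatin assembly and methylation, 5 rose in each gel (median gel effect 0.41), with Asf1b, a histone chaperone, at 1.37 ± 0.16 and the acetyltransferase Hat1 at 0.82 ± 0.05. Rbbp4, the third subunit of the chaperone that Chaf1a and Chaf1b belong to, was lower in Gel/IL-12 (-0.28, edgeR adjusted p = 0.0321) and had -0.24 in Gel, -0.19 with Laponite and -0.23 with Laponite@IL-12, which missed. Of 11 other genes of the E2F family and its partners, 4 rose in each gel, and among them the repressors E2f7 (1.09 ± 0.12) and E2f8 (0.89 ± 0.08) had higher values than E2f1, a difference that was not tested. E2f3, E2f4 and E2f5 passed in no gel, and Rbl2, a pocket protein, was lower in the fit over 15 libraries (-0.20 ± 0.05, edgeR adjusted p = 0.00202) and passed in no single gel. For comparison, all 20 genes of a list of G2 and mitosis rose in every gel, with a median gel effect of 1.08, led by Cdc20 (1.41 ± 0.08) and Bub1b (1.38 ± 0.07). The smallest of the 20 was Cenpe (0.57 ± 0.10). This list too was chosen with earlier results of these data known.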

How the data were processed

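RNA-seq of 15 libraries in 5 groups of 3 was analysed. Per the labels the build was mm10. The aligner, the counting tool and its strand setting are not given in the sources used here. The deposited read counts per gene were used for every test. The deposited FPKM values were made by the authors and are not the counts divided by gene length and total, so levels per length are CPM per kb of the authors' gene length. The FPKM ratios of all genes tested, used for their median, had a pseudocount of 0.1, and the printed ratios of the 47 genes had none. Columns with the authors' group means and with 10 of their comparisons (fold changes and p-values) were not used. The 47 genes and all other lists were chosen with earlier results of these data known. All 47 were named.

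Counts (14506459 to 17818982 per library) were scaled by TMM, and genes were kept by filterByExpr (minimum count 10, minimum total 15). Differences were tested with edgeR 4.0.16 (R 4.3.3), by its quasi-likelihood F-test with robust dispersion and Benjamini-Hochberg adjustment over all genes (threshold 0.05). Each gel was fitted with IR-Con alone, the gels among themselves in 12 libraries, and the average of all gels against IR-Con in 15. SE is the log2 fold change over the square root of F. DESeq2 1.42.0, limma 3.58.1 (voom), DESeq2's size factors, no filter, 1 fit of all libraries, a replicate block and leaving out each library were alternatives. The fits were also run on simulated counts with a common dispersion for all genes of a group. Genes that differ in spread were not covered by that run, and its outcome is not given here. Gene positions were from GENCODE (GRCm38) and promoters from RefSeq (GRCm38.p6), searched for E2F words on both strands.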

Additional observations from a re-analysis of the deposited data

Results flagged for a closer look

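In the 12 gel libraries the effect of Laponite differed between gels with and without IL-12 for 3 of the 47 replication genes, by a test of the interaction itself (edgeR, adjusted p under 0.05 over all genes). The difference between the effects was 0.18 on the log2 scale for Mcm2, 0.29 for Pole and -0.16 for Pcna. Of all genes 3.7% passed this test in either direction, and whether the share of the 47 genes differs from it was not tested. None of the 3 passed when all 15 libraries shared 1 fit, nor without Gel replicate 3, Gel/IL-12 replicate 1 or Gel/Laponite@IL-12 replicate 1.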

How the results depend on the processing

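The number of replication genes called over IR-Con moved by less than 1.5 times in every alternative that was run. Without 1 library it ran between 30 and 38 for Gel (36 with all), between 30 and 41 for Gel/IL-12 (40), between 29 and 39 with Laponite (37), between 28 and 38 with Laponite@IL-12 (35), and 44 and 46 for the gel effect (45), with 36 to 40 genes whose groups did not overlap (36). Orc6, called in neither, turned to -0.015 in Gel and -0.029 in Gel/IL-12 without IR-Con replicate 3, in ranges of -0.015 to 0.153 and -0.029 to 0.14 without 1 library. Among the gels the calls were fewer than 5 and depended on the setting. With all 15 libraries in 1 fit, 0 genes passed for Gel/Laponite over Gel (otherwise 2), for Gel/Laponite@IL-12 over Gel (1) or over Gel/Laponite (1) and the interaction (3). DESeq2 gave 0 in Gel/Laponite@IL-12 over Gel and over Gel/Laponite, and no filter gave 1 in Gel/Laponite over Gel. Without 1 library these 4 ran between 1 and 3, 0 and 1, 0 and 1, and 0 and 3. Gel/IL-12 over Gel ran between 0 and 1 and the Laponite effect between 0 and 2. The cause of these changes was not tested.

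No pairing of the libraries by replicate number was seen, as 0 of 30 same-numbered pairs had a correlation of deviations over 0.1 (-0.0723 to 0.0408). A weak pairing could be missed by this measure, which was taken over all genes kept. With a replicate block 38 genes were called for Gel over IR-Con, 39 for Gel/IL-12, 37 with Laponite and 39 with Laponite@IL-12, 45 for the gel effect and 3 for the interaction, and the block ended the call of Rpa1 in Gel/IL-12 (edgeR adjusted p = 0.0546) and with Laponite (0.0723). Depth limits Orc1, Gmnn, Gins1, Rfc4, Dscc1, Pole2 and Fen1, which had fewer than 100 counts in at least 1 library.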
